A study of Mus musculus with 12 samples.

Results

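Aminoacyl-tRNA synthetases are the enzymes that join each amino acid to its matching transfer RNA, the step that supplies the ribosome with charged tRNA. The 35 genes described here are the mouse genes listed by symbol for this enzyme family, 19 for cytosolic enzymes (symbols ending in 1, with Farsa and Farsb) and 16 for mitochondrial enzymes (symbols ending in 2). The listing leaves out the aspartate enzymes, which were not analysed here. All 35 symbols matched a gene among the 78298 rows of the deposited count table, and all 35 were among the 22190 genes that passed the filter on low counts, with at least 72 counts in every library. The genes were chosen by name, with no threshold on a measured value, but with earlier results on tumour and normal tissue from the same libraries in view. The number that differed between tumour and normal tissue is therefore a description and not an independent test of the family.

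RNA was sequenced from 12 mouse lung samples, 3 in each of 4 groups. Macroscopic LLC tumours and lung tissue next to them were cut out by hand, and each tissue came from a VEH or an HDM arm. The series title names house dust mite, which HDM is taken to stand for, while LLC and VEH are used as the labels give them. None of the groups carries a genotype label. The labels used here give no strain, age or sex of the animals, and they do not say whether the samples of a group came from separate animals, so p-values measure the spread between these samples.

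Library totals ran from 20608682 to 32765364 counts, and the genes of the mitochondrial genome took 0.342% to 1.79% of them in the 6 tumour libraries and 1.96% to 5.38% in the 6 normal libraries. This share thus separated the tissues as well, and its part in the tumour and normal differences was not tested. Library names share a prefix between a normal and a tumour library, and for 2 of the 6 prefixes the treatment labels of the partners differ, which concerns 4 libraries. Marker genes separated the tissues: the summed level of 8 endothelial markers was 1794 to 3758 CPM (counts scaled to a common library size) in normal libraries and 104 to 616 in tumours, that of 10 alveolar markers was 18270 to 45730 against 52.3 to 9281, and that of 7 macrophage markers was 168 to 718 against 796 to 1265. None of these markers was at 0 throughout a group. All 8 endothelial markers were lower in tumours under both treatments, as were 2 of 10 alveolar markers under VEH and 10 of 10 under HDM, while 4 of 7 macrophage markers were higher and 1 lower under VEH and 3 were higher under HDM. All 10 genes of a proliferation list, among them Mki67, Top2a, Ccnb1 and Birc5, were higher in tumours under both treatments (medians of the log2 change 3.11 under VEH and 4.05 under HDM). By the test described below, 18.2% of all genes tested were higher and 20.6% lower under VEH, and 23.0% and 28.9% under HDM. In such pieces of tissue, a change in the make-up of cells and a change in the RNA per cell cannot be told apart, and the part of either in the results below was not tested.

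Cells keep separate sets of these enzymes. The cytosolic set serves the translation of nuclear messages, and the mitochondrial set is also encoded in the nucleus but is imported to charge the tRNAs that mitochondria make. Exceptions are Kars1 and Gars1, whose genes make both the cytosolic and the mitochondrial enzyme for lysine and glycine, and Qars1, which has no mitochondrial counterpart because mitochondria make glutaminyl-tRNA by amidation. Several cytosolic members sit in a large multisynthetase complex held together by non-enzyme proteins. Many cytosolic members are known targets of ATF4, the transcription factor of the amino acid response, and Wars1, the tryptophan enzyme, is a known interferon gamma response gene.

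Most cytosolic members were higher in tumours. A gene was called where edgeR's quasi-likelihood test gave a Benjamini-Hochberg adjusted p under 0.05 over all 22190 genes. Under VEH 22 of the 35 members were called, with 38.9% of all genes tested, and under HDM 25 of 35, with 51.9% of all genes. Of the 19 cytosolic members 18 were higher in tumour than in normal lung under VEH and none was lower, where 18.2% of all genes were called higher and 20.6% lower. Under HDM, 16 of 19 were higher and 1, Wars1, was lower, with 23.0% of all genes called higher and 28.9% lower. The median log2 change of the 19 genes was 0.89 under VEH and 1.02 under HDM, where the median over all genes tested was −0.11 and −0.08. In each treatment 18 of the 19 had all 3 tumour libraries above all 3 normal ones, which was so for 23.9% of all genes under VEH and 29.6% under HDM. The comparisons share no library, though they share one estimate of the spread. Each of the 2 prefixes with conflicting labels has a library in each comparison, so the comparisons may not be independent. In both, 16 cytosolic members were called higher.

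**Figure D1:**
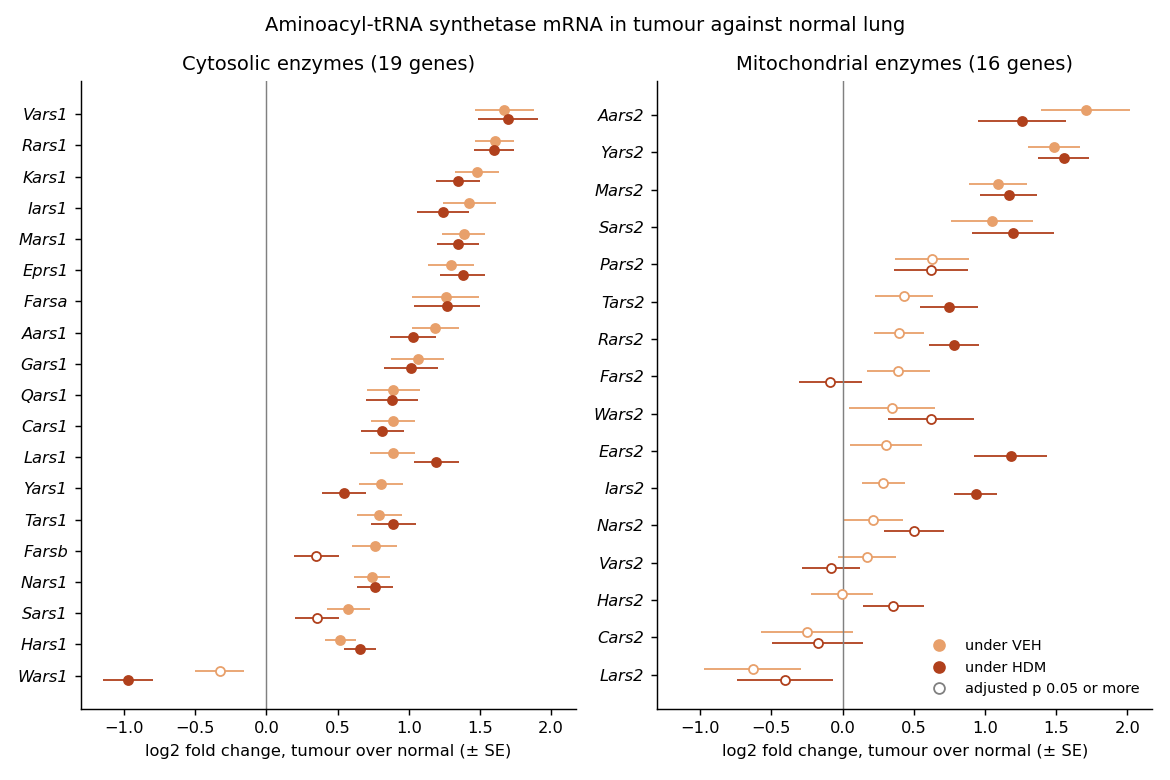
Log2 fold change of tumour over normal tissue (x axis, ± standard error) for each of the 19 cytosolic and 16 mitochondrial members, under VEH (light) and HDM (dark), with filled points for an adjusted p below 0.05. All cytosolic members but Wars1 lie right of 0 in both treatments, from 0.52 (Hars1) to 1.67 (Vars1) under VEH, and the mitochondrial members spread from −0.63 (Lars2) to 1.71 (Aars2).

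Vars1, the valine enzyme (chr17:35219871-35235305, GRCm39), had the largest cytosolic difference. It stood at 96.8, 137 and 82.7 CPM (scaled by TMM, edgeR's library scaling) in the normal VEH libraries and at 331, 273 and 404 in the tumour VEH libraries. Under HDM it was 99.2, 119 and 98.7 in normal and 309, 347 and 372 in tumour tissue. Every tumour library lay above every normal library, and the difference was 1.67 ± 0.21 (log2, SE) under VEH with an adjusted p of 0.000501, and 1.70 ± 0.21 under HDM with an adjusted p of 0.000197, by edgeR's quasi-likelihood test.

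Rars1, the arginine enzyme of the multisynthetase complex (chr11:35699207-35725375), changed by nearly the same size. Its 3 libraries were at 42.5, 47.2 and 36.2 CPM in normal VEH tissue and at 136, 138 and 109 in tumour VEH tissue. In the HDM arm they were at 31.7, 34.0 and 35.0 in normal tissue and at 95.1, 102 and 109 in tumours. The groups did not overlap, and the log2 change was 1.60 ± 0.14 in either treatment, with edgeR adjusted p of 0.000304 under VEH and 8.64e-05 under HDM.

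Kars1, the lysine enzyme that serves both compartments, was at 64.4, 87.3 and 63.4 CPM in normal VEH libraries and at 224, 174 and 201 in tumour VEH libraries. It differed by 1.48 ± 0.16 under VEH (edgeR adjusted p 0.000331) and by 1.35 ± 0.16 under HDM (0.000155). The isoleucine enzyme Iars1 was at 46.5, 44.0 and 42.1 CPM in normal and 131, 87.9 and 138 in tumour VEH libraries, a log2 difference of 1.43 ± 0.18 (edgeR adjusted p 0.000547). Eprs1, a fused enzyme that charges both glutamate and proline tRNA, stood at 67.0, 85.9 and 79.2 CPM in normal HDM libraries and at 202, 191 and 211 in tumour HDM libraries, a difference of 1.38 ± 0.16 (0.000153). For each of these genes the lowest tumour library lay above the highest normal library of its arm.

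**Figure D2:**
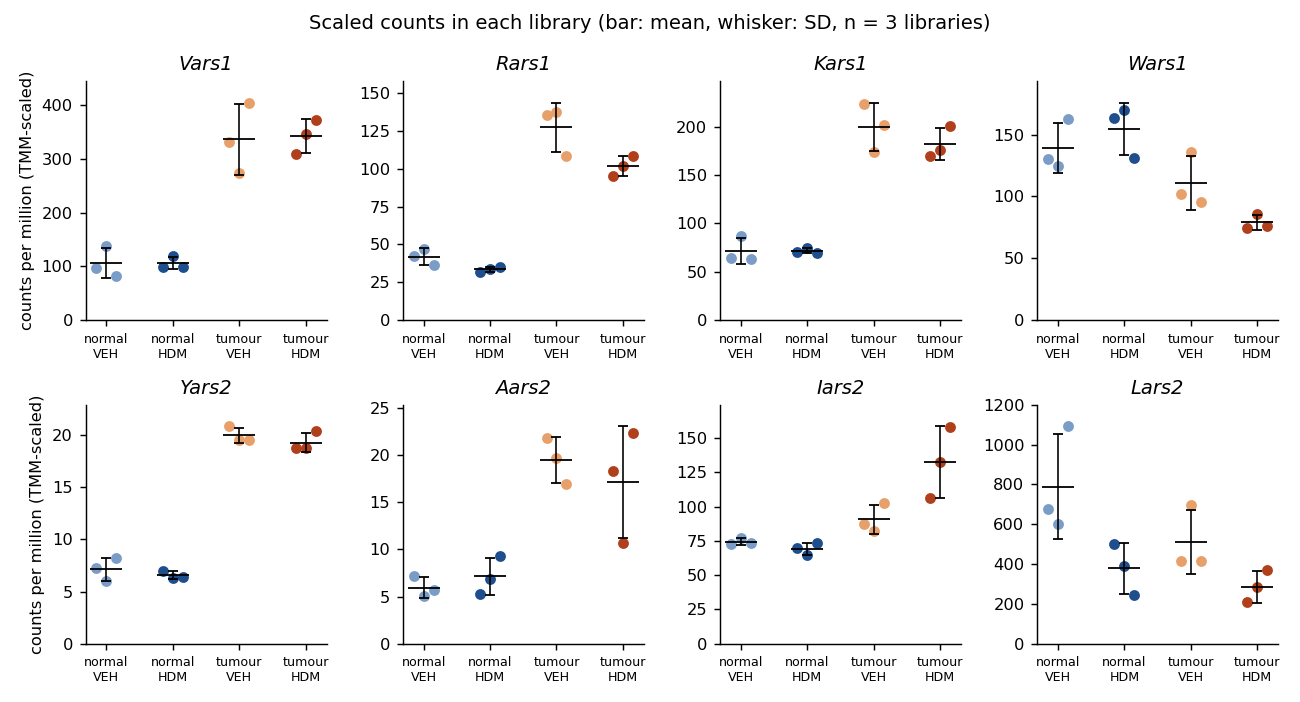
TMM-scaled CPM (y axis, from 0) of 8 members in each of the 12 libraries, by group, with the mean and SD of 3 libraries. Vars1, Rars1, Kars1, Yars2, Aars2 and Iars2 are higher in every tumour library than in every normal library of the same arm. Wars1 is lower in the HDM tumours, and Lars2 is widely spread within groups.

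Under VEH the smallest cytosolic rises were those of Hars1, the histidine enzyme (0.52 ± 0.11, and 0.66 ± 0.11 under HDM, where it was also called), and of Sars1, the serine enzyme. Sars1 rose by 0.57 ± 0.15 under VEH and differed by 0.35 ± 0.15 under HDM, where its edgeR adjusted p was 0.072. Farsb, the beta subunit of the phenylalanine enzyme, rose by 0.76 ± 0.16 under VEH and differed by 0.35 ± 0.16 (edgeR adjusted p 0.0827) under HDM. In both genes all tumour libraries lay above all normal ones of the arm in either treatment. Farsa, the alpha subunit, rose by 1.26 ± 0.23 and 1.27 ± 0.23. The estimates of the 2 subunits were unequal under HDM, a difference that was not tested. Farsb shares 1348 exon bases, 25.4% of its exons, with Sgpp2 on the opposite strand, whose log2 change was −2.66 ± 1.03 under VEH (edgeR adjusted p 0.0625) and −3.85 ± 1.08 under HDM (0.0129). The part of this overlap in the level of Farsb was not tested. The smallest called rise under HDM was that of Yars1, the tyrosine enzyme, with 0.55 ± 0.15 (edgeR adjusted p 0.0126).

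The 7 cytosolic members of the multisynthetase complex (Eprs1, Iars1, Kars1, Lars1, Mars1, Qars1 and Rars1) were all called higher in both treatments, with medians of 1.39 under VEH and 1.35 under HDM. The 12 cytosolic members outside it had 11 called higher under VEH, and 9 higher and 1 lower under HDM, with medians of 0.80 and 0.79. The 3 non-enzyme proteins that hold the complex together rose too. Eef1e1 rose by 1.59 ± 0.18 and 1.95 ± 0.18, Aimp2 by 1.16 ± 0.20 and 1.59 ± 0.21, and Aimp1 by 0.48 ± 0.17 and 0.95 ± 0.17, under VEH and HDM in that order. By catalytic fold, 9 of 10 class I members and 9 of 9 class II members were higher under VEH, against 9 of 10, with 1 lower, and 7 of 9 under HDM.

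Of the 12 cytosolic members often listed as ATF4 targets, 11 were higher under VEH (median 0.89), and 10 were higher and 1 lower under HDM (median 0.95). The 7 other cytosolic members had 7 and 6 called higher, with medians of 1.26 and 1.27, and the difference between these sets was not tested. In a list of 14 genes of the amino acid response, 5 were higher and 2 lower in each treatment. The 5 were the serine synthesis enzymes Psat1 and Phgdh, the mitochondrial folate enzymes Mthfd2 and Shmt2, and the asparagine synthetase Asns, with log2 changes of 1.20 (Asns) to 2.69 (Mthfd2) under VEH and 1.44 (Asns) to 2.92 (Psat1) under HDM. Vldlr (−3.08 and −4.43) and Nupr1 (−1.28 and −1.63) were lower, and Atf4 itself did not pass the test (0.25 ± 0.24 and 0.31 ± 0.24). Among 9 amino acid transporters 3 were higher and 3 lower under VEH, and 4 higher and 3 lower under HDM. For both lists, the shares of all genes were 18.2% called higher and 20.6% lower under VEH, and 23.0% and 28.9% under HDM. Slc7a1, a carrier of cationic amino acids, rose by 1.86 in each treatment, and Slc7a5, a carrier of large neutral amino acids, rose by 3.32 under HDM. Under VEH the change of Slc7a5 was 2.30 ± 0.88, which did not pass (edgeR adjusted p 0.0613). Slc38a2 (1.23 ± 0.19 and 1.07 ± 0.19) and Slc38a1 (0.85 ± 0.18 and 0.83 ± 0.18) were called higher in both treatments. Slc43a1 fell by 2.60 and by 2.38. Slc3a2 (−0.80 ± 0.16 and −1.04 ± 0.16) and Slc1a5 (−1.06 ± 0.15 and −0.80 ± 0.15) were also called lower in both treatments.

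Promoters were read from the GRCm39 genome for each gene's canonical GENCODE transcript, from 250 bases before its start to 50 bases from the start onward, and searched on both strands. The letters TGATGNAAN, the composite site of ATF4 with a C/EBP partner, occurred in 5 of the 19 cytosolic promoters, or 26.3%, in 0 of 16 mitochondrial promoters, in 3 of the 14 promoters of the amino acid response list, and in 3.83% of 21723 promoters of protein-coding genes. All 5 synthetase genes were among the 12 listed as ATF4 targets. The matches printed here lay on the strand opposite to the gene, so the capitals show the reverse complement of those letters. They are shown because their genes were all called higher in tumours in both treatments. Capitals mark the match, and positions count from 1 at the transcript's first base, with −1 just before it.
Aars1 at −26 to −18 (chr8:111760472-111760500, plus strand): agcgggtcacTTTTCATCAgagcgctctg
Cars1 at 27 to 35 (chr7:143153783-143153811, minus strand): cggcgccgcgGTTGCATCAgattctggaa
Gars1 at 12 to 20 (chr6:55014945-55014973, plus strand): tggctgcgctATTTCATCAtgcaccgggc
Iars1 at 37 to 45 (chr13:49835602-49835625, plus strand): cactgtcagtATTGCATCAcctcc
Tars1 at −9 to −1 (chr15:11399742-11399770, minus strand): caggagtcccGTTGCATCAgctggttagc

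The matches of Cars1, Gars1 and Iars1 (cysteine, glycine and isoleucine) lay within the transcribed 5′ UTR of the canonical transcript. The printed matches of Aars1, the alanine enzyme, and Tars1, though upstream of the canonical start, fall in 5′ UTR exons of other annotated transcripts. The log2 changes of these 5 genes under VEH were 1.19 for Aars1, 0.89 for Cars1, 1.06 for Gars1, 1.43 for Iars1 and 0.79 for Tars1, and those of the 14 other cytosolic members ran from −0.33 to 1.67. The letters TTCNNNGAA, which STAT factors bind in interferon-responsive genes, were found in 5 of 19 cytosolic and 3 of 16 mitochondrial promoters, against 8.83% of all promoters, and neither set of letters was found in the window of Wars1. A match describes letters in a window and shows neither binding nor a cause.

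Wars1 (chr12:108825955-108860188) was the cytosolic member with a negative change in both comparisons, and it was called in the HDM arm. Its libraries were at 163, 170.1 and 131 CPM in normal HDM tissue and at 74.7, 85.9 and 76.2 in HDM tumours, with no overlap (33.5% of all genes had every HDM tumour library below every normal one), and it fell by 0.97 ± 0.17 (log2; edgeR adjusted p 0.00121). Under VEH it was at 131, 124 and 162 CPM in normal tissue and at 102, 136 and 95.1 in tumours, where the libraries overlapped and the change of −0.33 ± 0.17 did not pass (edgeR adjusted p 0.148). Without tumour VEH replicate 2, the tumour library with the highest value, that change was −0.50 with an adjusted p of 0.0391. The difference between the treatments, tested as an interaction, was −0.64 ± 0.24 with an unadjusted p of 0.0227 and an adjusted p of 0.506.

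Because Wars1 is a known interferon gamma response gene, a list of 14 such genes is given beside it. Of these, 6 were higher in tumours under VEH and none was lower, led by the chemokines Cxcl9 (6.43 ± 1.16) and Cxcl10 (4.02 ± 0.87). Under HDM 2 were higher and 7 lower, among them Ido1 (−3.92 ± 0.89), an enzyme that breaks down tryptophan, and Cd74 (−2.32 ± 0.49), the invariant chain of MHC class II. Of all genes, 18.2% were called higher and 20.6% lower under VEH, and 23.0% higher and 28.9% lower under HDM. HDM tumours against VEH tumours had 3 of the 14 called lower, Psmb8, Psmb9 and H2-Ab1. All 14 were below 0 with an unadjusted p below 0.05, and the median was −2.25. Between these tumour groups 0.0946% of all genes were called, and 16.7% had an unadjusted p below 0.05, in either direction. The summed level of 8 T and NK cell markers was 46.7 to 77.4 CPM in VEH tumours and 2.67 to 20.4 in HDM tumours, with none of the 8 at 0 throughout a group and none called between the tumour groups, though 7 of 8 had an unadjusted p below 0.05. The part of these cells in the level of Wars1 was not tested.

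Fewer mitochondrial members were called, a difference between the classes that was not tested. Under VEH 4 of 16 were higher, Aars2, Yars2, Mars2 and Sars2, and none was lower, where 18.2% of all genes were called higher and 20.6% lower. Under HDM 8 of 16 were higher, the same 4 with Ears2, Iars2, Rars2 and Tars2, and none was lower, where 23.0% of all genes were called higher and 28.9% lower. The median log2 change was 0.37 under VEH and 0.68 under HDM, or 0.39 and 0.75 without Lars2. Without normal HDM replicate 3, which is no library of the VEH comparison but enters the shared fit, 7 were called under VEH. All tumour libraries lay above all normal ones for 8 members under VEH and for 10 under HDM, as they did for 23.9% and 29.6% of all genes. Total counts ran from 1666 (Pars2) to 153678 (Lars2) for mitochondrial members and from 10601 (Cars1) to 70756 (Vars1) for cytosolic ones. A gene with fewer counts is less easily called, and the part of this in the difference between the classes was not tested.

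Aars2, the alanine enzyme of mitochondria (chr17:45817749-45832900), had the largest change under VEH. It was at 7.15, 5.03 and 5.68 CPM in normal and at 21.8, 19.7 and 16.9 in tumour VEH libraries, a difference of 1.71 ± 0.31 (edgeR adjusted p 0.0024). Under HDM it was at 5.28, 6.87 and 9.24 in normal and at 18.3, 10.7 and 22.3 in tumour libraries, a difference of 1.26 ± 0.31 (0.00615). Neither pair of groups overlapped, though HDM tumour replicate 2 lay close to the highest normal library.

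Yars2, the tyrosine enzyme (chr16:16120366-16157367), had the smallest p of the mitochondrial set in both comparisons. It stood at 7.23, 6.01 and 8.17 CPM in normal VEH, 20.8, 19.6 and 19.6 in tumour VEH, 7.004, 6.30 and 6.37 in normal HDM, and 18.7, 18.7 and 20.3 in tumour HDM libraries. It rose by 1.49 ± 0.18 under VEH (edgeR adjusted p 0.000463) and by 1.55 ± 0.18 under HDM (0.000159). Every tumour library lay above every normal library. Mars2, the methionine enzyme, was at 8.95, 7.49 and 8.08 CPM in normal VEH and 18.2, 15.8 and 18.3 in tumour VEH libraries, and it rose by 1.09 ± 0.20 (0.00255) and 1.17 ± 0.20 (0.00101). Sars2, the serine enzyme, rose by 1.05 ± 0.29 (0.0165) and 1.20 ± 0.29 (0.00606) from a low level of 3.03 to 5.44 CPM in normal libraries, and its call under VEH was lost without normal VEH replicate 3 (0.93, adjusted p 0.0637).

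Ears2 and Iars2 were called under HDM and not under VEH. Ears2, the glutamate enzyme, was at 4.51, 5.21 and 6.59 CPM in normal HDM and 12.2, 9.29 and 15.5 in tumour HDM libraries, a rise of 1.18 ± 0.26 (edgeR adjusted p 0.00347), against 0.31 ± 0.25 (0.347) under VEH. Iars2 (chr1:185016803-185061612), for isoleucine, rose by 0.93 ± 0.15 (0.000762) under HDM and differed by 0.29 ± 0.15 (0.152) under VEH. Its tumour libraries lay above all normal ones of the arm in both treatments. The interaction was 0.87 ± 0.36 for Ears2 and 0.65 ± 0.21 for Iars2, each with an unadjusted p below 0.05 (0.033 and 0.0117) and an adjusted p above it (0.512 and 0.48), so a difference between treatments was not shown. Rars2 for arginine (0.78 ± 0.18) and Tars2 for threonine (0.75 ± 0.20) were also called under HDM, and their estimates under VEH were 0.40 ± 0.18 and 0.43 ± 0.20. Vars2, Hars2, Cars2, Fars2, Nars2, Pars2, Wars2 and Lars2 were called in neither comparison, with changes from −0.63 (Lars2) to 0.63 (Pars2) under VEH.

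**Figure D3:**
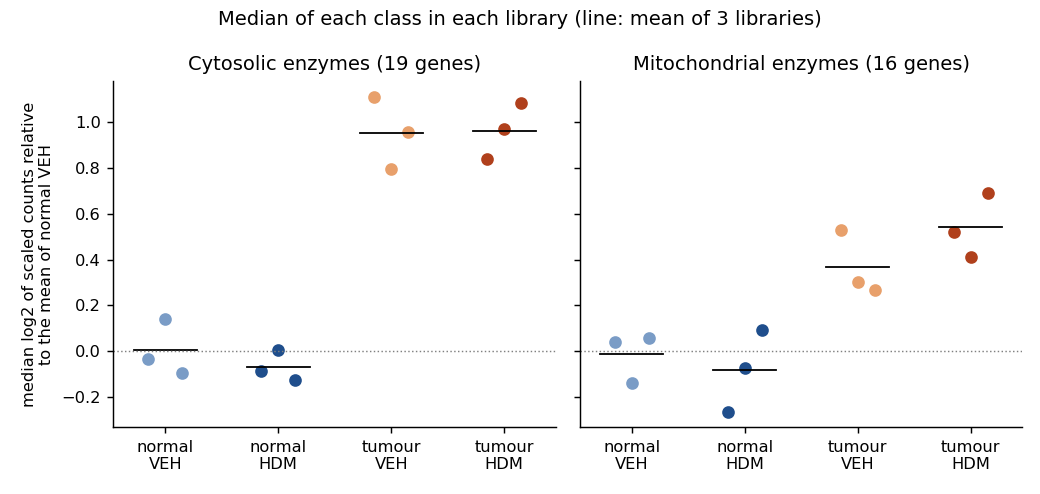
Median over the members of each class of the log2 scaled count relative to the mean of the normal VEH libraries (y axis), for each of the 12 libraries, with a line at the mean of 3. The 6 tumour libraries lie between 0.80 and 1.11 for the cytosolic class and between 0.27 and 0.69 for the mitochondrial class, above all normal libraries in each.

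Set side by side by amino acid, 17 pairs of a cytosolic and a mitochondrial enzyme cover 16 amino acids, with Farsa and Farsb each paired with Fars2 and Eprs1 paired with Ears2 and with Pars2. The cytosolic enzyme had the larger log2 change in 13 of 17 pairs under VEH and in 13 of 17 under HDM, and the median difference was 0.53 and 0.30. The 4 exceptions in both were alanine, serine, tryptophan and tyrosine. The widest gaps were those of leucine (1.52 and 1.60) and valine (1.504 and 1.78), and the narrowest in favour of the cytosolic enzyme were methionine under VEH (0.29) and threonine under HDM (0.14). Neither Lars2 (−0.63 and −0.40) nor Vars2 was called in either comparison, and Lars2 was widely spread within groups. These are differences of estimates, and the gap within a pair was not tested.

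**Figure D4:**
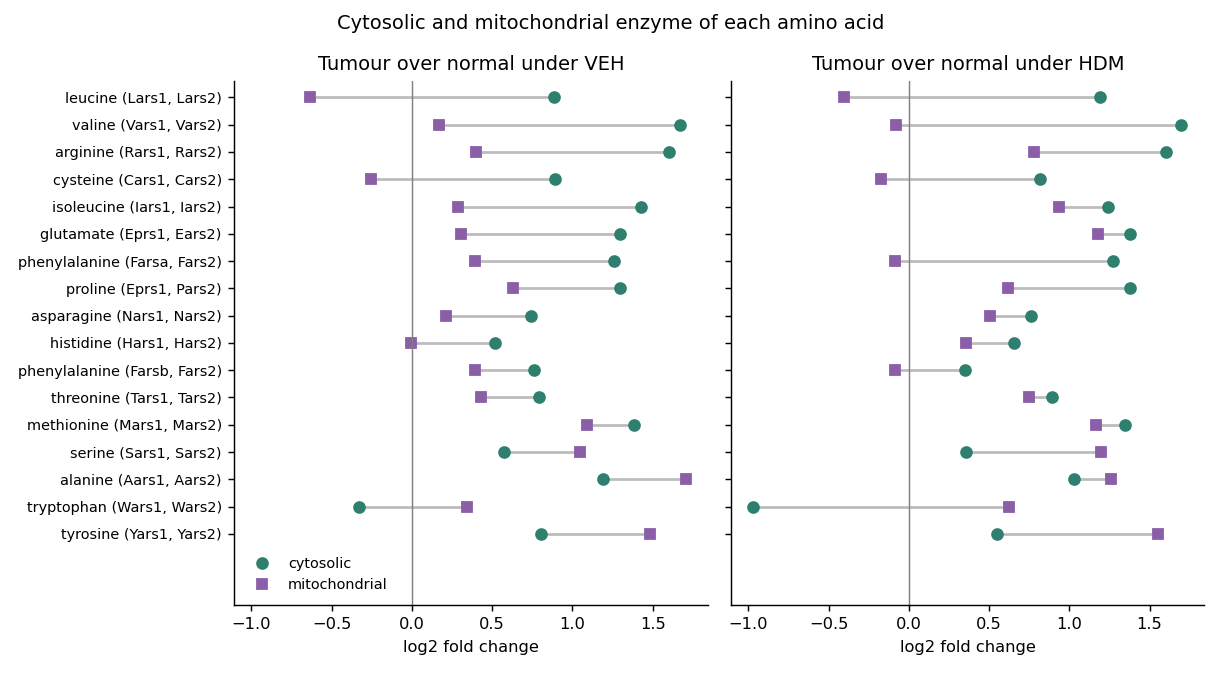
Log2 fold change of tumour over normal tissue (x axis) of the cytosolic (circle) and mitochondrial (square) enzyme of each amino acid, under VEH and HDM, ordered by the gap under VEH. The circle lies right of the square in 13 of 17 pairs in each panel, and left of it for serine, alanine, tryptophan and tyrosine.

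Other genes around mitochondrial translation moved in part. Of 12 genes of mitochondrial translation, 6 were higher under VEH and 9 under HDM, none was lower, and the medians were 0.54 and 0.77. Mrps22, a protein of the small mitochondrial ribosomal subunit, rose by 1.52 ± 0.20 and 1.35 ± 0.20, and Mrpl3 of the large subunit by 1.08 ± 0.15 and 1.15 ± 0.15. Of 6 genes that act on mitochondrial tRNA or carry it, with Tufm in this list and the former, 2 were higher under VEH, the elongation factor Tufm (0.94 ± 0.16) and the CCA-adding enzyme Trnt1 (0.52 ± 0.13), and 3 under HDM. Gatb, Gatc and Qrsl1, the subunits of the amidation enzyme that stands in for a mitochondrial Qars, were called in neither comparison (−0.24 to 0.60). In the cytosol, 1 of 7 tested genes that handle charged tRNA was higher and 1 lower under VEH, and 3 were higher and 1 lower under HDM. Beside these lists, 18.2% of all genes were called higher and 20.6% lower under VEH, and 23.0% and 28.9% under HDM. Eef1a1, which carries charged tRNA to the ribosome, rose by 0.96 ± 0.20 and 0.85 ± 0.20.

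Levels of different genes are compared as CPM per kilobase of the deposited gene length. The median cytosolic member stood at 13.0 in normal VEH, 11.6 in normal HDM, 24.6 in tumour VEH and 22.9 in tumour HDM tissue. The median mitochondrial member stood at 2.09, 1.98, 3.91 and 3.76 in the same order. Wars1 led the cytosolic members in normal tissue, at 40.4 ± 5.9 (SD, n = 3) under VEH and 44.9 ± 6.1 under HDM, above Gars1 at 29.1 ± 7.6 and 28.4 ± 3.1. In HDM tumours Vars1 (61.1 ± 5.7) and Gars1 (57.5 ± 7.2) came first with overlapping spreads, ahead of Kars1 (40.7 ± 3.7) and Nars1 (39.4 ± 2.1), and Wars1 (22.9 ± 1.8) stood 11th of the 35. Cytosolic members together took 0.121% to 0.145% of scaled counts in normal libraries and 0.230% to 0.281% in tumours. Mitochondrial members without Lars2 took 0.0231% to 0.0267% in normal libraries and 0.0333% to 0.0449% in tumours.

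Lars2, the leucine enzyme of mitochondria (chr9:123195952-123291731), stood apart from its class. It was at 675, 600.5 and 1091 CPM in normal VEH, 500.4, 392 and 244 in normal HDM, 415, 694 and 417 in tumour VEH, and 207, 283 and 369 in tumour HDM libraries, and it made up 36.3% to 80.4% of all counts of the 16 mitochondrial members. The tumour and normal libraries overlapped in both treatments (−0.63 ± 0.34 and −0.40 ± 0.34, edgeR adjusted p 0.154 and 0.338). Across the 12 libraries its log2 level followed that of Rn18s-rs5, a gene of 18S ribosomal RNA that took 0.263% to 1.06% of counts (Pearson r 0.86, permutation p 0.00023, adjusted 0.00805 over the 35 members; Spearman rho 0.76, permutation p 0.00604, adjusted 0.211). The Pearson relation passed the adjustment and the rank relation did not. The r was 0.97 within the 6 tumour libraries, 0.79 within the 6 normal libraries, and 0.72 over 10 libraries without normal VEH replicate 3 and tumour VEH replicate 2, the farthest from the median of the ribosomal gene. These 2 libraries share a name prefix, as do 5 other pairs of a normal and a tumour library, while the permutations treated all 12 as exchangeable. The next member, Fars2, had an r of 0.63 (permutation p 0.0291, adjusted 0.509). This relation was looked for after the spread of Lars2 was seen, a search that the adjustment does not cover, and its cause was not tested.

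**Figure D5:**
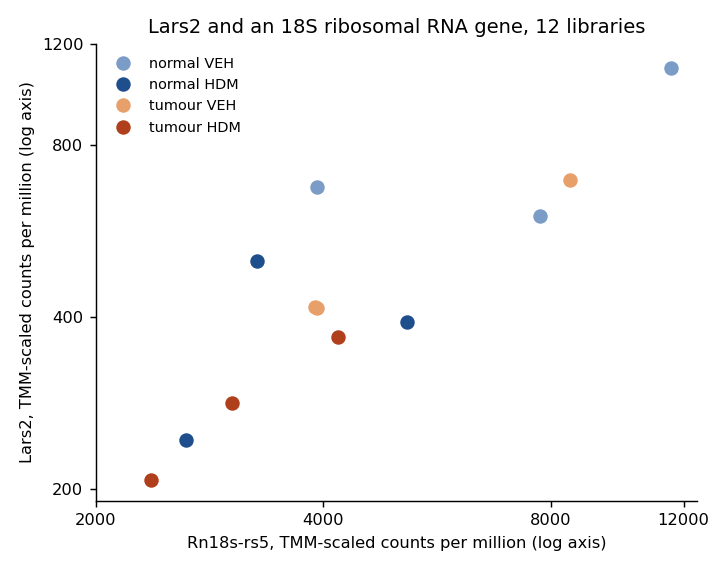
TMM-scaled CPM of Lars2 (y axis, log scale) against Rn18s-rs5 (x axis, log scale) in each of the 12 libraries, coloured by group. Points run from 207 to 1091 for Lars2, and the libraries highest in both are normal VEH replicate 3 and tumour VEH replicate 2.

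Exposure to HDM moved no member past the threshold within a tissue. Between HDM and VEH tumours 0 of 35 members were called by edgeR, where 0.0946% of all genes were, and 8 of 35 had an unadjusted p below 0.05, as did 16.7% of all genes. The tumour libraries of the arms did not overlap for 8 of 35 members, 2 higher and 6 lower under HDM, and for 22.0% of all genes, 11.3% higher and 10.7% lower. Between HDM and VEH normal tissue 0 members were called, with 0% of all genes, and 4 of 35 had an unadjusted p below 0.05, as did 5.54% of all genes. For the interaction 0 members were called, with 0% of all genes, and 3 of 35 had an unadjusted p below 0.05, as did 9.39% of all genes. A DESeq2 Wald test also called 0 members in each of the 3 comparisons. Each of the 4 groups holds a library whose prefix has conflicting treatment labels: normal VEH replicate 2, normal HDM replicate 3, tumour VEH replicate 3 and tumour HDM replicate 2. If any of these labels were exchanged, the 3 comparisons would mix the arms, and whether they were was not tested.

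In tumours the lowest unadjusted p among higher estimates was that of Iars2, at 87.7, 82.0 and 103 CPM under VEH and 106, 132 and 159 under HDM. Its groups did not overlap, and the log2 difference was 0.54 ± 0.15 (edgeR unadjusted p 0.00438, adjusted 0.173). Hars2 (0.40 ± 0.22, adjusted 0.372) and Mars2 (0.33 ± 0.20, adjusted 0.423) came next. Among lower estimates the first was Wars1 (−0.49 ± 0.17, edgeR unadjusted p 0.016, adjusted 0.22), then Yars1 for tyrosine (−0.43 ± 0.15, adjusted 0.23) and Cars1 for cysteine (−0.40 ± 0.15, adjusted 0.243). Cars1 was at 50.5, 47.2 and 50.9 CPM in VEH tumours and at 42.5, 34.6 and 35.7 in HDM tumours. Of the 19 cytosolic members 14 had an estimate below 0, with a median of −0.13, and of the 16 mitochondrial members 11 had one above 0, with a median of 0.12, where the median of all genes was −0.03.

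In normal tissue the lowest unadjusted p was that of Lars2 (−1.06 ± 0.34, edgeR unadjusted p 0.0102, adjusted 0.866), whose level followed the ribosomal gene as described above. Ears2 (−0.66 ± 0.25) and Tars1 for threonine (−0.40 ± 0.16) followed, both with an edgeR adjusted p of 0.887. The lowest p among higher estimates were those of Vars2 (0.42 ± 0.20, adjusted 0.887), Farsb (0.30 ± 0.16, adjusted 0.888) and Mars2 (0.26 ± 0.20, adjusted 0.956). Tars1 was at 58.6, 55.3 and 50.6 CPM under VEH and 36.1, 40.5 and 48.1 under HDM, without overlap. Non-overlapping libraries were seen for 9 of 35 members in normal tissue, 1 higher and 8 lower, and in 10.3% of all genes, 4.47% higher and 5.85% lower. The summed level of 6 cardiac marker genes was 17.9 to 262 CPM in normal VEH and 190.2 to 437 in normal HDM libraries. None of them was called, as was no gene in this comparison. Of the 6, Myl4 (2.98 ± 0.57), Tnni3 (2.84 ± 0.62), Myl7 (3.50 ± 1.49) and Myh6 (4.24 ± 1.84) had an edgeR unadjusted p below 0.05. Tnnt2 and Actc1 did not, and 5.54% of all genes did. The part of cardiac tissue in the members' values was not tested.

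The interaction had Iars2, Ears2 and Rars2 first among positive estimates (0.65 ± 0.21, 0.87 ± 0.36 and 0.38 ± 0.25) and Wars1, Farsb and Fars2 among negative ones (−0.64 ± 0.24, −0.41 ± 0.22 and −0.48 ± 0.31). Their edgeR adjusted p ran from 0.48 to 0.615. A p above the threshold does not show that the treatments acted alike on these genes.

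Some members overlap other genes. Whether the counting used strand is not given in the sources used here. Among 159 genes of 300 exon bases or more that lie wholly inside the exons of a gene with 10000 counts or more on the opposite strand, 154 had counts, with a median of 803, against 20 of 41, with a median of 0, for genes inside exons of the same strand. Genes inside opposite-strand exons thus mostly held counts. The check cannot tell a gene's own reads from misassigned reads of a partner on the opposite strand. How fully reads of such partners were counted apart was not tested. Exons of 13 members overlapped such a partner by 400 bases or more. Mars1, the methionine enzyme, shares 3576 bases with Ddit3, which did not pass the test (0.15 ± 0.25 and −0.45 ± 0.25) while Mars1 rose by 1.39 ± 0.15 and 1.35 ± 0.15. In Yars2 3594 bases are shared with Dnm1l, which rose by 0.90 ± 0.13 and 1.26 ± 0.13 and has 24150 counts in all against 4187 for Yars2. Vars1 shares 463 bases with D17H6S56E-5 (1.37 ± 0.38 and 1.58 ± 0.38), Aars2 785 bases with Gm65187 (1.22 ± 0.40 and 1.11 ± 0.40), Ears2 601 bases with Ubfd1 (0.98 ± 0.23 and 1.03 ± 0.23), and Iars2 2884 bases with Rab3gap2 (0.73 ± 0.20 and 1.02 ± 0.20). In each of these 4 the partner named was also called higher in both comparisons. Ears2 also shares 662 bases with Gm73801, which was called higher under HDM and not under VEH. Its log2 change was 0.19 ± 0.34 under VEH (edgeR adjusted p 0.681) and 1.40 ± 0.35 under HDM (0.00701). Kars1 shares 486 bases with Gm64538, which was also higher in both (1.71 ± 0.28 and 1.74 ± 0.28). Cars2, the cysteine enzyme of mitochondria, shares 4080 bases with Naxd, which fell by 1.48 and by 1.43, while Cars2 was called in neither comparison (−0.25 ± 0.32 and −0.18 ± 0.32). The share of a partner in a member's value was not tested.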

How the data were processed

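The authors deposited raw read counts per Ensembl gene with a gene length column, per the file headers. The submitters' processing notes name STAR, Trim Galore, featureCounts and Subread and the mm39 build, with no versions. Libraries were stranded by dUTP, per the labels' protocols, which leave poly(A) selection or ribosomal RNA depletion open. Symbols and coordinates came from GENCODE M39 (GRCm39), where 78168 of 78298 identifiers matched; the other 130 held 0.143% of counts.

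The fit used edgeR 4.0.16 under R 4.3.3 (filterByExpr, minimum count 10, TMM, robust quasi-likelihood, a coefficient for each of 4 groups over all 12 libraries), with Benjamini-Hochberg adjustment over 22190 genes and tests two-sided. The code was tested on simulated counts. Permutation p-values used 100000 resamples. The members and lists were chosen with earlier results of these data known. Full statistics were given for up to 4 called rises and 4 falls per class in each tumour comparison, otherwise for the 3 smallest p per direction, and for Wars1 under VEH. Of the other lists, up to 4 called genes with the largest changes were named. Asns, Nupr1, Atf4, Slc3a2, Slc38a1, the cardiac genes and the amidation subunits were named after their values were seen. Promoter windows came from the GRCm39 genome because the promoter table is on another build. Alternatives covered scaling, filters, DESeq2 1.42.0, blocks and libraries left out. Replicate numbers were not used as pairs. Not every promoter match is reported here.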

Additional observations from a re-analysis of the deposited data

How the results depend on the processing

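Each library was left out in turn, and scaling, filter, tool and blocks were varied singly. Members called under VEH ranged from 20 to 25 (22 as reported) and under HDM from 25 to 30 (25) with a library left out, and mitochondrial members called higher under VEH from 3 to 7 (4), with 7 without normal HDM replicate 3. No member was called for treatment or the interaction in any setting run. Scaling by library size alone moved the median of all genes under VEH from −0.11 to 0.03 and under HDM from −0.08 to 0.10, and then called 18 cytosolic and 6 mitochondrial members higher under VEH, and 18 and 11 under HDM. Without the 4 libraries with conflicting prefixes, the counts changed by less than 1.5 times. With the replicate block the counts stayed at 22 and 25. Same-numbered libraries deviated together weakly (r −0.36 to 0.30 over 18 pairs, 8 above 0.1), so the numbers were not taken as pairs. Libraries that share a name prefix had r of −0.22 to 0.18 (6 pairs, 3 above 0.1). Those that share neither had r of −0.53 to 0.54 (33 pairs, 6 above 0.1). Both extremes involved normal VEH replicate 2, which has a conflicting prefix. Its r was 0.54 with normal HDM replicate 1 and −0.53 with normal HDM replicate 3, the other normal library with a conflicting prefix. Normal HDM replicate 3 had an r of 0.43 with normal VEH replicate 1. Whether treatment labels were exchanged was not tested. Prefixes were not used as pairs in the main fit. Of 750 alternative values for 36 single-gene results, 745 kept direction and side of the threshold. Mars2 between treatments in normal tissue turned from 0.26 to −0.025 with a block for the name prefix, Sars2 under VEH lost its call in 3 settings (adjusted p 0.0560 to 0.0900), and Wars1 under VEH gained one. The causes were not tested. The lowest count of a member in any library was 72, and members with few counts are measured less precisely.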
